A study of Mus musculus with 9 samples.

Results

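The Schlafen genes of the mouse form a family of paralogs, and 7 of them were followed here, namely Slfn1, Slfn2, Slfn3, Slfn4, Slfn5, Slfn8 and Slfn9. They were chosen by gene symbol, with no cutoff on a measured value, from the 50600 genes of the deposited tables. Earlier results of these data were known at that time. The cells were RAW-Blue, a reporter line made from mouse macrophages that carries a secreted reporter of NF-kappaB and AP-1 activity and that was grown under its selection antibiotics in every group. RNA of untreated cells (None, 3 libraries) was compared with that of cells stimulated for 24 hours with 1 µg/ml of lipopolysaccharide (LPS, 3 libraries). The remaining labelled group (LPS-PjELNs), exposed to vesicles from Peucedanum japonicum, a plant, for 16 hours ahead of LPS, could not be matched to any column by name and was not analysed here. All libraries come from a single cell line, and whether replicates were separate cultures is not said in the labels. The p-values therefore rest on a spread between samples that may be technical.

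Schlafen proteins, named after the German word for sleep, were first described as regulators of growth in developing T cells, and many of their genes respond to type I interferon. They share an amino-terminal core that in several members cleaves or binds transfer RNA. The short members Slfn1 and Slfn2 consist of little more than that core, Slfn3 and Slfn4 add a middle part, and the long members Slfn5, Slfn8 and Slfn9 also carry a helicase-like end. LPS comes from the outer membrane of Gram-negative bacteria, signals through Tlr4 in macrophages, and can lead to production of type I interferon.

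The 7 genes lie in a cluster of 263 kb on chromosome 11 (82952102 to 83215154, GRCm38) that also holds the pseudogene Slfn10-ps. Stretches of 160 bases before the annotated start of each gene, taken from RefSeq (GRCm38.p6), are shown because members of this cluster moved in different directions, so that their upstream letters can be set beside the values. The first 4 share ACTTCCTGG, printed in capitals, the longest run common to their windows, which holds the core letters of ETS factor motifs. These 4 genes were grouped after the sequences were read. The run occurs on either strand in 0.843% of all 32851 RefSeq promoter windows of 300 bases, and it overlapped none of the other motifs searched. Since the run was picked from these 4 windows, that share is no measure of enrichment.
Slfn1, chr11:83116660-83116819, plus strand: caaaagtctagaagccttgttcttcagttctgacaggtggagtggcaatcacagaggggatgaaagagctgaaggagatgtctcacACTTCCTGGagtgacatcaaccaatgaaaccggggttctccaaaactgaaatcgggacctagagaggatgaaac
Slfn2, chr11:83064952-83065111, plus strand: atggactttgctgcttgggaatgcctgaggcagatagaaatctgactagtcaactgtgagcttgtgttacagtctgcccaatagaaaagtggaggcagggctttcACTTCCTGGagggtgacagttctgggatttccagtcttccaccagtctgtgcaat
Slfn3, chr11:83191170-83191329, plus strand: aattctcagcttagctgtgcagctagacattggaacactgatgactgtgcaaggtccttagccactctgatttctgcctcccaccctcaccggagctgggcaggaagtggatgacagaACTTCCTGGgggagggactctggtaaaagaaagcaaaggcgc
Slfn4, chr11:83175026-83175185, plus strand: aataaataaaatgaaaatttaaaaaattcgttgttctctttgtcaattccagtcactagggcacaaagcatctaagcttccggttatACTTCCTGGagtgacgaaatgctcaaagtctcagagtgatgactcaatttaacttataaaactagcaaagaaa

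The other members carry instead, in capitals, the core of the interferon-stimulated response element (ISRE), which is GAAA, any 2 bases and GAAA, or its reverse complement. The core was searched on both strands and occurs in 3.44% of all promoter windows.
Slfn5, chr11:82951942-82952101, plus strand: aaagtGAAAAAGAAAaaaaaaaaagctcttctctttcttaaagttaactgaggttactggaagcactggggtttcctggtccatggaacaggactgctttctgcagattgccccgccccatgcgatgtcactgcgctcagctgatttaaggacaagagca
Slfn8, chr11:83020811-83020970, minus strand: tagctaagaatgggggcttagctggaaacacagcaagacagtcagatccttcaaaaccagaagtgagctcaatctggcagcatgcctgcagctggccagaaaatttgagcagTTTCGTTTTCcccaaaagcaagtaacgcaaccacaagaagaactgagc
Slfn9, chr11:82991831-82991990, minus strand: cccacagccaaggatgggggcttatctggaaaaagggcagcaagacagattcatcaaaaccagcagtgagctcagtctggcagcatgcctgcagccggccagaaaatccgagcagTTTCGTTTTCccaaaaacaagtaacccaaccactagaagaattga

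In Slfn8 the match lies at -48 to -39 relative to the start, in Slfn9 at -45 to -36, and in Slfn5 further away at -155 to -146. A second RefSeq start of Slfn8, downstream of the one shown, has the same match in its window. The promoter windows of Slfn8 and Slfn9 were identical at 248 of 300 bases (82.7%) in a global alignment. With the second start of Slfn8 the figure was 186 bases (62.0%), and for the remaining pairs of different members it was between 48.0% and 56.3%. Neither the core TTCNNNGAA of the GAS element, present in 8.30% of all windows, nor an NF-kappaB core (GGG, any 2 bases and TTTCC), present in 1.63%, was found in a member's window. Only these exact spellings were searched, and no AP-1 motif was. The Slfn2 stretch above holds gggatttcc, a shorter spelling that this search passes over. The search therefore does not show that NF-kappaB or AP-1 sites are absent. These matches describe letters only.

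LPS libraries held far more Schlafen transcript than None libraries. Of the 7 members, 5 rose (Slfn1, Slfn2, Slfn3, Slfn4 and Slfn5), Slfn9 fell, and Slfn8 was not called. Across the genome 69.1% of the 11916 genes tested were called by the same rule (edgeR quasi-likelihood test, p adjusted by Benjamini-Hochberg over all genes tested, threshold 0.05), with 34.0% higher and 35.1% lower. The CPM values of the groups did not overlap for 6 of the 7 members, 5 of them higher in LPS, against 73.6% of all genes tested and 35.7% higher without overlap. A fold of at least 4 among higher calls was found for 4.40% of genes, and Slfn1, Slfn2, Slfn4 and Slfn5 were among them. The median log2 fold change was 2.88 over the 7 members and -0.03 over all genes tested. All 7 passed the filter on low counts, Slfn1 through its LPS libraries alone.

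Library totals ran from 14650825 to 17665201 counts, and the chi-square between any 2 libraries of a group was 3.28 to 16.8 times its degrees of freedom, which is beyond sampling noise. Of the 8 macrophage markers listed, 7 were well detected, whereas the phagocytic receptor gene Mertk had 2 counts in all. By log2 fold change, Itgam (1.08) and Lyz2 (0.99) were called higher, Csf1r (-1.33) and Fcgr3 (-0.31) lower, and 3 were not called. Over all genes tested, 69.1% were called. Of the T cell genes Cd3e, Cd3g, Cd8a and Trac were at 0 in all 6 libraries and Cd4 had 4 counts, all in None, while both NK cell genes listed and the neutrophil gene Ly6g were at 0. The B cell gene Ms4a1 was at 0 in all 6 libraries, but Cd79a, also a B cell gene, moved with the Schlafen genes, from 0.155 to 0.271 CPM in None to between 0.944 and 1.63 CPM in LPS, with a log2 fold change of 2.47 and an edgeR adjusted p of 0.000128. Cd79a was named after its value was seen, it rests on 13 counts in None and 54 in LPS, and its part in the Schlafen values was not tested. The dendritic cell, fibroblast and epithelial markers summed to at most 1.34, 0.218 and 0.103 CPM in a library. Among them only the dendritic cell gene Zbtb46 had enough counts to be tested, and it was not called. In such bulk RNA, fewer expressing cells and less RNA per cell cannot be told apart.

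The 7 genes together summed to 56.7, 57.1 and 53.6 TPM, a level scaled for depth and transcript length, in the None libraries. In the LPS libraries they summed to 306, 422 and 320 TPM. The ratio of the group means was 6.26, and it was between 5.61 and 6.65 when single libraries were left out. In None cells Slfn2 and Slfn4 had the highest levels, with overlapping ranges, followed by Slfn9, then Slfn8 and Slfn3 with overlapping ranges, then Slfn5, with Slfn1 listed at 0. In LPS cells the order became Slfn4 and Slfn2, again overlapping, then Slfn5, then Slfn3, and last Slfn1, Slfn8 and Slfn9, whose neighbouring ranges overlapped.

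**Figure D1:**
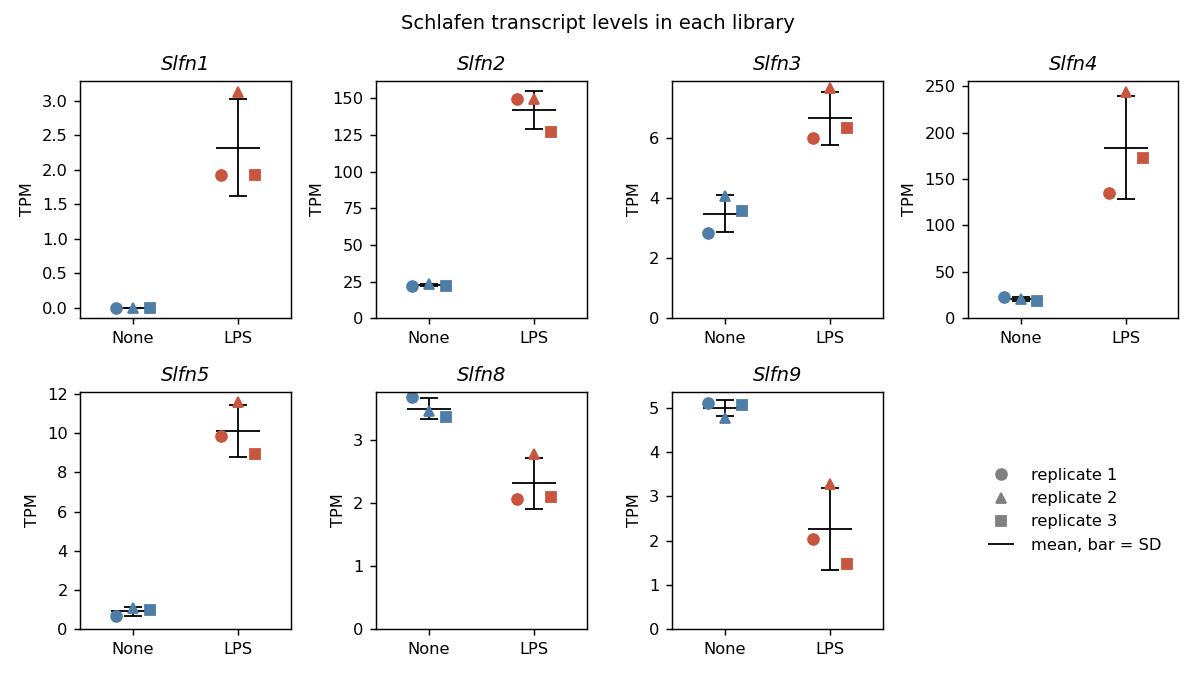
Level of each Schlafen gene in TPM (y axis, a separate scale per panel) in the 3 None and 3 LPS libraries; marker shapes give the replicate, horizontal lines the mean and bars the SD. The LPS points lie above all None points for Slfn1 to Slfn5 and below them for Slfn8 and Slfn9, and LPS replicate 2 is the highest LPS point in every panel.

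The short member Slfn2 (ENSMUSG00000072620, chromosome 11, 83065112 to 83070678, plus strand) is required for quiescence and survival of T cells and monocytes in mice. Its levels were 22.1, 23.2 and 22.0 TPM in None and 149.4, 149.9 and 127.0 TPM in LPS. The None values were nearly equal, and the lowest LPS library stood several times above them. On the count scale Slfn2 rose 7.38-fold, with a log2 fold change of 2.88 ± 0.08 (SE), from 25.7 ± 0.54 to 189 ± 12.3 CPM, counts scaled to library size (SD, n = 3). Its adjusted p in the edgeR test, 2.27e-11, was the smallest of the family. The gene moved from above 61.7% of tested genes by mean TPM in None to above 92.9% in LPS.

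The other short member, Slfn1 (ENSMUSG00000078763, chromosome 11, 83116849 to 83122670), known as a growth inhibitor of thymocytes, had 0 counts in each None library. The LPS libraries held 41, 64 and 42 counts, or 1.92, 3.13 and 1.92 TPM. A count of 0 over the None group allows up to 0.0525 CPM, taken as 3 counts over the group. Against that floor Slfn1 was at least 67.1-fold higher in LPS. The fitted log2 fold change of 8.86 rests on the prior count that edgeR adds and is no bound, and the edgeR adjusted p was 8.67e-07. The level in LPS remained above that of only 16.4% of tested genes. Its groups did not overlap, but on this small number of counts the size of the increase is known only as that bound.

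Slfn4 (ENSMUSG00000000204, chromosome 11, 83175186 to 83190216, plus strand), an intermediate member known from interferon-responsive myeloid cells, had 22.3, 20.5 and 18.6 TPM in None. Its LPS libraries held 135, 244 and 172 TPM, the widest spread within a group among the members in absolute terms. All LPS values lay above all None values. Slfn4 rose 11.03-fold, from 47.2 ± 5.30 to 521 ± 147 CPM (SD, n = 3), with a log2 fold change of 3.46 ± 0.18 (SE) and an edgeR adjusted p of 5.33e-09. Slfn4 is also known from neutrophils. The 4 neutrophil markers listed summed to between 0.155 and 0.271 CPM in None and between 14.1 and 17.4 CPM in LPS, almost all of it S100a8, while the defining Ly6g was at 0 in all libraries and S100a9 held 4 counts in all.

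Slfn3 (ENSMUSG00000018986, chromosome 11, 83191330 to 83215154), the neighbour of Slfn4 and also an intermediate member, changed far less. It had 2.83, 4.06 and 3.56 TPM in None and 5.98, 7.65 and 6.33 TPM in LPS. The groups did not overlap, although the highest None and lowest LPS values were close. Slfn3 rose 2.23-fold, with a log2 fold change of 1.16 ± 0.16 (SE) and an edgeR adjusted p of 3.91e-05. Within single libraries the TPM of Slfn4 was 5.05 to 7.89 times that of Slfn3 in None and 22.5 to 31.9 times in LPS, so the ratios did not overlap between groups.

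Among the long members, Slfn5 (ENSMUSG00000054404, chromosome 11, 82952102 to 82964840, plus strand) is an interferon-induced nuclear protein. Its levels were 0.64, 1.09 and 0.98 TPM in None and 9.85, 11.6 and 8.96 TPM in LPS. The gene went from near the bottom of the tested genes, above 7.05% of them by mean TPM, to above 42.8%. Slfn5 rose 11.8-fold, with a log2 fold change of 3.56 ± 0.16 (SE) and an edgeR adjusted p of 1.50e-09. The antisense gene Slfn5os overlaps Slfn5, and it had 0 counts in all 6 libraries. The sources used here do not say whether counting used strand, so reads of Slfn5 and Slfn5os cannot be told apart, and the values of Slfn5 may include antisense reads.

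Slfn9 (ENSMUSG00000069793, chromosome 11, 82978390 to 82991830, minus strand), another long member, went the other way. Its levels were 5.12, 4.78 and 5.07 TPM in None and 2.03, 3.27 and 1.47 TPM in LPS. The None libraries were tightly grouped, the LPS libraries were spread, and the groups did not overlap. Slfn9 was 2.02-fold lower in LPS, with a log2 fold change of -1.01 ± 0.19 (SE) and an edgeR adjusted p of 0.000453. The log2 fold change of Slfn9 was -1.35 without LPS replicate 2 and -0.80 without LPS replicate 3, and the call held in both fits.

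Slfn8 (ENSMUSG00000035208, chromosome 11, 83002158 to 83020810, minus strand), the close relative next to Slfn9, had 3.68, 3.46 and 3.36 TPM in None and 2.07, 2.78 and 2.09 TPM in LPS. On this scale every LPS library was lower. In CPM scaled by TMM (trimmed mean of M-values) the groups touched, at 8.48 CPM in None replicate 3 and 8.49 CPM in LPS replicate 2. The log2 fold change of Slfn8 was -0.35 ± 0.15 (SE), and its edgeR adjusted p of 0.0604 missed the threshold. Scaling by library totals alone moved the log2 fold changes of all genes by a median of -0.26. With that scaling Slfn8 was called lower at -0.61 (edgeR adjusted p 0.00501). It was also called lower by limma on log2(TPM + 1), at -0.45 with an adjusted p of 0.0136. TPM values are not scaled by TMM, and that fit moved all genes by a median of -0.20, much as library totals did. By edgeR without LPS replicate 2, Slfn8 was called lower at -0.51 with an adjusted p of 0.0110. The log2 fold change of Slfn8 stayed negative and that of Slfn5 positive under every scaling tried. Slfn8 was not called with RLE factors (-0.33, edgeR adjusted p 0.0758) or by DESeq2 (-0.33, adjusted p 0.122), so its direction is not settled. The TPM ratio of Slfn9 to Slfn8 was 1.38 to 1.51 in None and 0.703 to 1.18 in LPS.

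**Figure D2:**
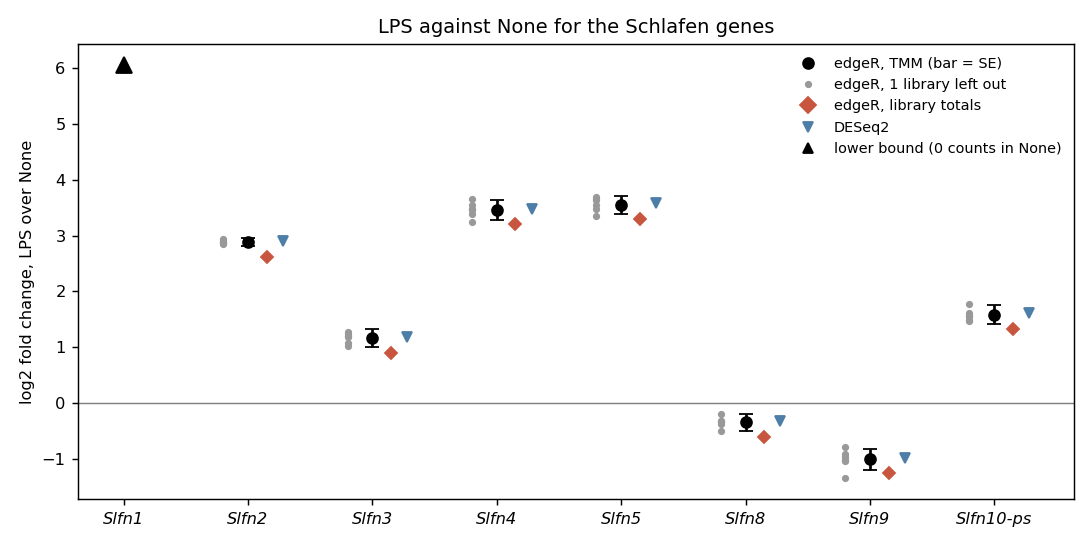
Log2 fold change of LPS over None (y axis) for each Schlafen gene: black circles with SE bars from edgeR with TMM scaling, grey dots leaving out 1 library each, diamonds scaling by library totals, inverted triangles DESeq2, and the upright triangle the lower bound for Slfn1. Slfn2, Slfn4 and Slfn5 lie above 2.6 under each of these, Slfn3 lies between 0.899 and 1.27, Slfn10-ps lies above 0 and below Slfn2, and Slfn8 and Slfn9 lie below 0.

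The make-up of the Schlafen transcript pool changed with these levels. Slfn2 and Slfn4 together made up 75.8% to 78.4% of the summed TPM in the None libraries and 92.9% to 93.5% in the LPS libraries. The share of Slfn9 was 8.96% ± 0.55 in None and 0.632% ± 0.16 in LPS (SD, n = 3). Slfn8 held 6.27% ± 0.22 and 0.663% ± 0.012, and Slfn3 6.25% ± 1.11 and 1.91% ± 0.09. The share of Slfn5 was 1.62% ± 0.43 in None and 2.92% ± 0.26 in LPS. Slfn2 kept a share of 40.3% ± 1.12 and 41.3% ± 6.83, and Slfn4 had 36.6% ± 2.44 and 51.9% ± 7.09. These shares are a description without a test.

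**Figure D3:**
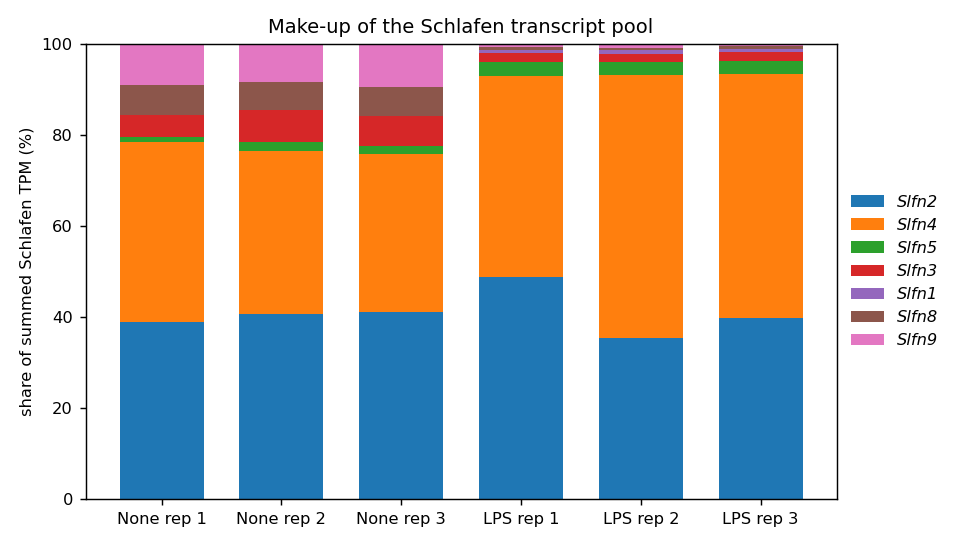
Share of the summed TPM of the 7 Schlafen genes (y axis, %) held by each gene, as stacked bars for each of the 6 libraries. Slfn2 and Slfn4 fill over 75% of each None bar and over 92% of each LPS bar, and the shares of Slfn8, Slfn9 and Slfn3 are smaller in LPS.

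Within the LPS group, replicate 2 had the highest CPM for 6 of the 7 members, all except Slfn2, which was highest in replicate 1. Replicate 2 was the highest LPS library for 32.4% of all genes tested and for 20.7% of the genes called higher. Among 10 tested genes of interferon signalling it was the highest for 5. Without LPS replicate 2 the calls of Slfn1, Slfn2, Slfn3, Slfn4, Slfn5 and Slfn9 held, and Slfn8 was called as given above.

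The members are related in sequence, which bears on how reads were divided between them. Of the 100-base windows in the GENCODE transcripts of a member, the length of a read, none of Slfn1, 0.13% of Slfn2, 0.27% of Slfn4, 2.92% of Slfn3, 3.38% of Slfn8, 3.71% of Slfn9 and 6.40% of Slfn5 also occurred in transcripts of other genes. For Slfn5 these included its antisense gene Slfn5os, and for Slfn8 and Slfn9 they were each other and Slfn10-ps. The deposited estimates were whole, to within 0.005 of a count, in all 6 libraries for Slfn1, Slfn2, Slfn4 and Slfn5. They were not whole in 5 libraries for Slfn3, 4 for Slfn9 and 2 for Slfn8, so some reads of these genes were divided and their values are less certain. Slfn10-ps, which shares windows with Slfn8 and Slfn9, rose 2.99-fold, from 5.65 ± 0.25 to 16.9 ± 4.01 CPM (SD, n = 3), with an edgeR adjusted p of 4.07e-06. Its estimates were not whole in 4 libraries. Slfn14 and Slfnl1, 2 further Schlafen genes, had 0 counts in all libraries.

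Of 11 genes considered on either side of the cluster, 7 were tested, and 3 rose and 4 were not called, with a median log2 fold change of 0.01 beside -0.03 over all genes. With 34.0% of all genes tested called higher, this count says little about the neighbourhood. The 3 called were the ubiquitin ligase gene Rffl (2.13), the clathrin adaptor gene Ap2b1 (0.50) and the RNA-binding protein gene Taf15 (0.44). The call of Taf15 was lost with scaling by library totals, where it was 0.18 with an adjusted p of 0.142 by the same edgeR test. With that scaling 3 of the 7 were lower. Ap2b1 and Taf15 lie beyond Slfn3, at the end of the cluster where Slfn14 had no counts. Within the cluster the 2 members that did not rise, Slfn8 and Slfn9, lie next to each other on the minus strand between Slfn5 and Slfn10-ps.

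**Figure D4:**
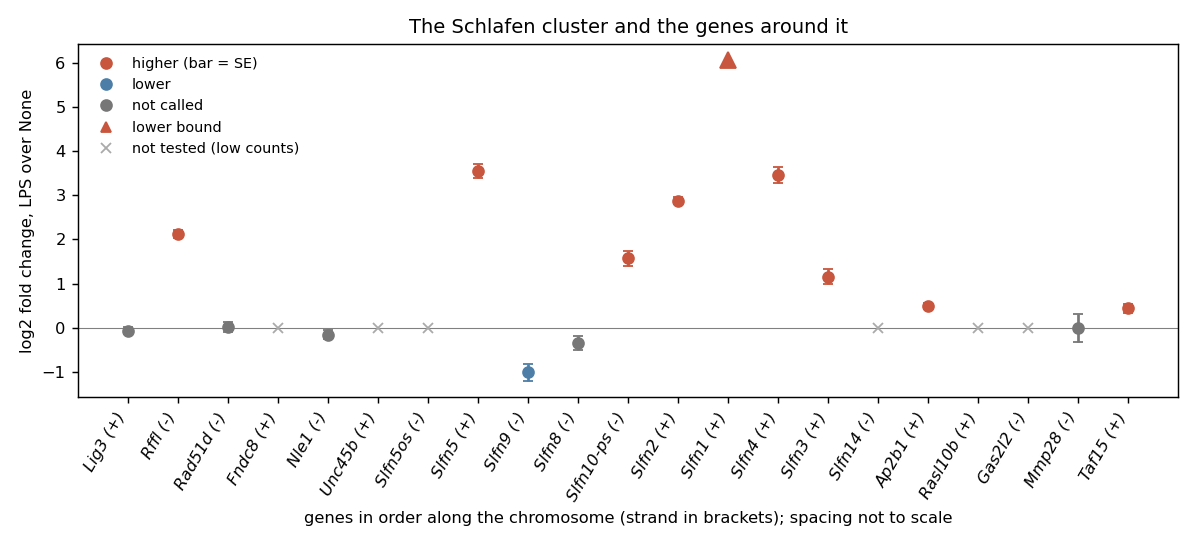
Log2 fold change of LPS over None (y axis, bars are SE) for the Schlafen genes and the listed genes around them, in their order along chromosome 11 with the strand in brackets; the triangle is the lower bound for Slfn1 and crosses are genes with too few counts. Members from Slfn2 to Slfn3 are all higher, while Slfn9 and Slfn8 lie below 0 between Slfn5 and Slfn10-ps.

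Interferon signalling genes, the pathway to which several Schlafen genes respond, rose in 8 of 10 tested, against 34.0% of all genes tested, with a median log2 fold change of 0.59 against -0.03. The 4 largest changes were far above that median. The transcription factor gene Irf7 rose 212.8-fold to 954 ± 124 CPM (SD, n = 3), the deconjugase and feedback inhibitor gene Usp18 43.6-fold, the suppressor gene Socs1 5.35-fold, and Irf9, a DNA-binding subunit of the interferon-activated factor ISGF3, 4.09-fold. The edgeR adjusted p was 4.05e-12 for Irf7 and 5.08e-05 for Socs1, with the other 2 in between. The receptor chain gene Ifnar2 was not called at a log2 fold change of -0.11, and it was called lower at -0.37 with scaling by library totals. The gene that fell was Irf3 at -0.47. The smallest increase called was that of the kinase gene Tyk2 at 0.25 (edgeR adjusted p 0.0280), whose groups overlapped and whose call was lost with scaling by library totals, at -0.00902, and without None replicate 2 or 3 or LPS replicate 2 or 3, with edgeR adjusted p of 0.126, 0.0942, 0.0864 and 0.0767. Irf3 and Tyk2 were named after their values were seen. Ifnb1, which encodes the ligand interferon beta, had 0 counts in None and 1 count in LPS, so at this depth and this single time its transcript was at the limit of detection in both groups.

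The list on quiescence and growth arrest, the processes for which the family was named, mixes genes that arrest growth with genes of proliferation. Among the latter are cyclin genes, Mki67 and Myc, so a count over the list has no single meaning. Of its 18 genes, 4 rose, 9 fell and 5 were not called, and their median log2 fold change was -0.25. Since 34.0% of all genes tested were higher and 35.1% lower, this count does not set the list apart. Myc, a driver of growth, rose 43.1-fold, while the antiproliferative gene Btg2 (-2.34), the proliferation marker Mki67 (-1.89) and the transcription factor gene Klf4 (-1.71) fell. In the other direction, the cyclin-dependent kinase inhibitor gene Cdkn1a rose 2.86-fold and Btg1, a relative of Btg2, rose 2.37-fold, with edgeR adjusted p of 1.85e-08 and 3.38e-06. Both were named after their values were seen. Tob1 (-1.32), Cdkn2c (-0.89) and Cdkn1b (-0.42), further growth-arrest genes of the list, fell, while Klf2, Foxo1 and Foxo3 were not called. Growth-arrest genes thus stood among those that rose and, in larger number, among those that fell. Of the proliferation genes, Mki67, Ccna2 (-1.70), Ccnb1 (-1.51) and Top2a (-1.13) fell. Myc and Ccnd2 (1.57) rose, and Ccnd1 and Ccnd3 were not called. The cyclin genes, Top2a and the further growth-arrest genes were also named after their values were seen. Of 10 genes that cut or modify transfer RNA or bear on its cleavage, none rose and 6 fell, against 34.0% and 35.1% of all genes tested. The share called in either direction was thus close to the 69.1% of all genes. Those that fell were among others Rnase4 (-1.58), a secreted ribonuclease whose estimates were not whole in 5 libraries, the interferon-induced antiviral factor Samd9l (-1.02), the transfer RNA methyltransferase gene Trdmt1 (-0.87) and Elac1 (-0.58), which repairs or trims transfer RNA ends. In 3 other settings, RLE scaling, DESeq2 and the fit without LPS replicate 2, 1 gene of that list was called higher.

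By likeness of pattern, measured as the Euclidean distance between log2 CPM profiles over the 6 libraries centred on the None mean, the genes nearest to Slfn4 were Slc30a2 (distance 0.51), a zinc transporter gene, and Oas1a (0.53), an interferon-induced RNA sensor. Slc30a2 had 0 counts in None and a mean of 1.27 CPM in LPS and passed the filter only through LPS. Its distance rests on the prior count of 2 and is no sign of a like change. Ifih1, a cytosolic RNA sensor, and Acsbg1, an acyl-CoA synthetase gene, were nearest to Slfn5, at 0.35 and 0.42. Slfn2 was nearest to Gk (0.10), the glycerol kinase gene, and Por (0.20), the gene of an electron donor to cytochromes. For Slfn3 they were Phtf2 and Lrrfip2, at 0.27 and 0.28. The neighbours of Slfn9 were Samd9l (0.22) and the checkpoint kinase gene Chek1 (0.23), and those of Slfn8 were Rnpc3 (0.09), a splicing factor gene, and Cdkl4 (0.12). Slfn1 was nearest to the serotonin transporter gene Slc6a4 and to Apol9a, at 0.35 and 0.48, but its profile rests on the same prior count in the None libraries. Predicted genes (names starting with Gm and digits, or ending in Rik), genes without a symbol and pseudogenes were left out of this search. Over the tested genes kept, the median distance was 6.02 from Slfn4, 5.04 from Slfn2 and 1.09 from Slfn8. A small distance is therefore less unusual for a gene that changed little.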

How the data were processed

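Total RNA was sequenced as paired reads of 100 bases and filtered with SOAPnuke, per the labels' protocols. STAR (2.7.10a), RSEM (1.3.1) and the build GRCm38 appear in the submitters' processing notes. The deposited expected counts are the authors' estimates per gene, and the deposited TPM values are the authors' length-scaled levels. Library strand and the annotation used are not given in the sources used here. Each table had 12 library columns whose names match no label, and these were not used.

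Expected counts were rounded and filtered with filterByExpr (minimum count 10, minimum total 15). Libraries were scaled by TMM, and None and LPS were compared, with group as the single term, by edgeR 4.0.16 (glmQLFit and glmQLFTest, two-sided, threshold 0.05) in R 4.3.3. The fit held 6 libraries and 11916 genes. Standard errors were derived from the F statistic. The floor for Slfn1 covers counting error only, while SE and SD values also take in the spread between libraries. Alternatives used RLE factors, library totals, DESeq2 1.42.0, other filters, limma 3.58.1 on log2(TPM + 1) and log2(TPM + 0.1), a replicate block, and single libraries left out. Scripts were tested on simulated data. Promoter windows came from RefSeq and were aligned with Biopython 1.88. No protein sequences were used here.

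The members, lists and tests were chosen with earlier results of these data known. Named genes are the members, up to 4 called genes per list with the largest changes, uncalled interferon signalling genes, and the 2 nearest genes by pattern. Predicted genes, genes without a symbol and pseudogenes were left out of the search by pattern. Some planned list members are not reported here.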

Additional observations from a re-analysis of the deposited data

How the results depend on the processing

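Over 15 alternative settings the direction of each of the 7 members was kept, as were the calls of the 5 that rose and of Slfn9. The number of members lower in LPS was 1, and it became 2, by the addition of Slfn8, with library totals, without a filter on low counts (adjusted p 0.0456 by edgeR), in the 3 limma fits on TPM, with the replicate block (0.0392) and without LPS replicate 2. It was 1 to 2 over the fits that left out a library. Over all genes, 4052 were higher in LPS, against 2679 with library totals, 2672 with limma on log2(TPM + 1) and 2656 on log2(TPM + 0.1). Higher genes were 49.2% of those called, 30.6% with library totals and 35.3% with limma on log2(TPM + 1). Whether replicate numbers pair the libraries was not settled. The deviations from the group means of same-numbered libraries correlated at 0.08, -0.02 and 0.01, and those of differently numbered ones at -0.06 to 0.07. With 3 libraries per group such values cannot show that pairing is absent. A block for the number moved the count of called genes from 8232 to 8362. The call of Rnpc3, a neighbour of Slfn8 by pattern, was lost in 4 settings, among them without None replicate 1 or 2 and without LPS replicate 3. Taf15 also lost its call in the unfiltered limma fit, with an adjusted p of 0.0627, and Cdkl4 was called lower only with library totals, at -0.59. Tyk2 was -0.00902 with library totals and lost its call in 8 of the 15 settings. Low counts limit Slfn1, whose size of change is a bound, and Slfn3 and Slfn8, with at most 178 counts in a library. The TPM fits understate changes of low genes, as for Slfn1 at 1.71 on log2(TPM + 1).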
